A study of Mus musculus with 8 samples.

Results

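Oxidative phosphorylation subunits were taken as the genes whose symbols begin with Nduf, Uqcr, Cox4 to Cox8 or Atp5, or are Sdha, Sdhb, Sdhc or Sdhd, each represented by its brightest probe set over the 8 arrays. This gave 90 genes of the 18193 measured, read from 179 probe sets with a single gene symbol. By complex, they were 42 genes of complex I, 4 of complex II, 8 of complex III, 19 of complex IV and 17 of complex V. The rule reads names only, so it takes in 8 assembly factors of the Ndufaf family, which help to build complex I without being part of it, and it leaves out cytochrome c1 (Cyc1) and the subunits encoded in mitochondrial DNA. Ndufs6, Ndufa11 and Cox7b had no probe set with a single symbol and were not analysed here.

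Complexes I and II pass electrons from NADH and succinate to ubiquinone, complex III passes them on to cytochrome c, and complex IV hands them to oxygen. Complexes I, III and IV pump protons across the inner mitochondrial membrane, and complex V, the ATP synthase, lets the protons flow back and makes ATP. All complexes except complex II combine nuclear-encoded subunits with subunits translated inside mitochondria, and ESCs in culture are known for a high rate of glycolysis beside respiration.

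RNA came from R1/E, a line of mouse embryonic stem cells (ESCs) kept feeder-free with LIF, 48 h after transfection of 80000 cells per well with 800 ng of esiRNA, an enzymatically made pool of short interfering RNAs. In one group of 4 arrays the esiRNA was directed against Rad21, the gene of the cohesin kleisin, and in the other group of 4 arrays it was directed against luciferase (Luc), which the cells lack. No gene was deleted and no transgene was named for these cells, and all 8 arrays came from the same line. Values are GCRMA signals on the log2 scale, so a difference of 1 is a factor of 2, and every change below is Rad21 knock-down minus Luc control.

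Rad21 itself was at 11.69, 11.75, 12.37 and 12.52 on the knock-down arrays and at 13.62, 13.42, 13.83 and 13.79 on the Luc arrays, which leaves 33.4% of the control signal (adjusted p = 0.00222), and its other 2 probe sets were at 16.6% and 50.6% (adjusted p = 1.64e-04 and 0.0114). Across probe sets, arrays of 1 group correlated at 0.998 to 0.999 and arrays of different groups at 0.993 to 0.995. The labelled cell type was borne out by its markers, whose summed signal (log2) was 17.38 to 17.43 on knock-down arrays and 17.65 to 17.69 on Luc arrays, with 6 of 8 markers lower in the knock-down. Of 8 endoderm markers, 3 were higher in the knock-down, with a summed signal of 8.39 to 8.78 on knock-down arrays and 6.59 to 6.98 on Luc arrays, while 5 of the 8, Gata4, Gata6 and Sox17 among them, stayed under 4 in both groups. Of 8 fibroblast markers 7 were under 4 in both groups, with a summed signal of 6.03 to 6.32 on knock-down arrays and 6.09 to 6.19 on Luc arrays. The part of the marker changes in the results below was not tested, and in bulk RNA fewer cells of a type and less RNA per cell cannot be told apart. The difference between 3′ and 5′ control probe sets, a measure of RNA quality, differed between the groups by −0.01 for Gapdh and by less for Actb (exact permutation p = 0.514 and 1; the smallest possible was 0.0286).

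In each of the 5 complexes more genes were called lower than higher in the Rad21 knock-down, mostly by small amounts. Lower calls also outnumbered higher calls over all genes. Of the 90 genes 32 were lower, 3 were higher and 55 were not called at an adjusted p under 0.05 (limma). Among all 18193 genes, 22.6% were called, 10.1% higher and 12.6% lower, against 3.33% higher and 35.6% lower among the respiratory genes. Bright probe sets were called more often: of all genes with a mean of at least 8, 16.5% were higher and 26% lower, whereas of the 82 respiratory genes this bright 2.44% were higher and 39% lower. By complex, 35.7%, 50%, 62.5%, 21.1% and 35.3% of the genes of complexes I to V were lower. Complex IV was above the 12.6% of all genes. Its share includes 5 genes under 4, so it does not compare directly with the 26% of bright genes. The median change was −0.10 over the 90 genes, with a range from −1.07 to 0.57, and 0.003 over all genes. Among genes with a mean of at least 8 it was −0.12 for the respiratory genes and −0.05 for all.

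The groups did not overlap for 41 genes below the control, or 45.6% of the 90 against 15.2% of all genes. Another 5 genes, or 5.56% against 12.6%, lay wholly above it. Among bright genes, with a mean of at least 8, the shares below were 50% of the respiratory genes and 29.6% of all, and the shares above 4.88% and 19.4%. In all, 67 changes were negative and 23 positive. Size was limited, since 23 of the 35 called changes were under 0.25 and only 5 of the falls exceeded 0.5, namely those of Cox7a1, Uqcr10, Ndufaf6, Uqcrq and Ndufaf5.

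**Figure D1:**
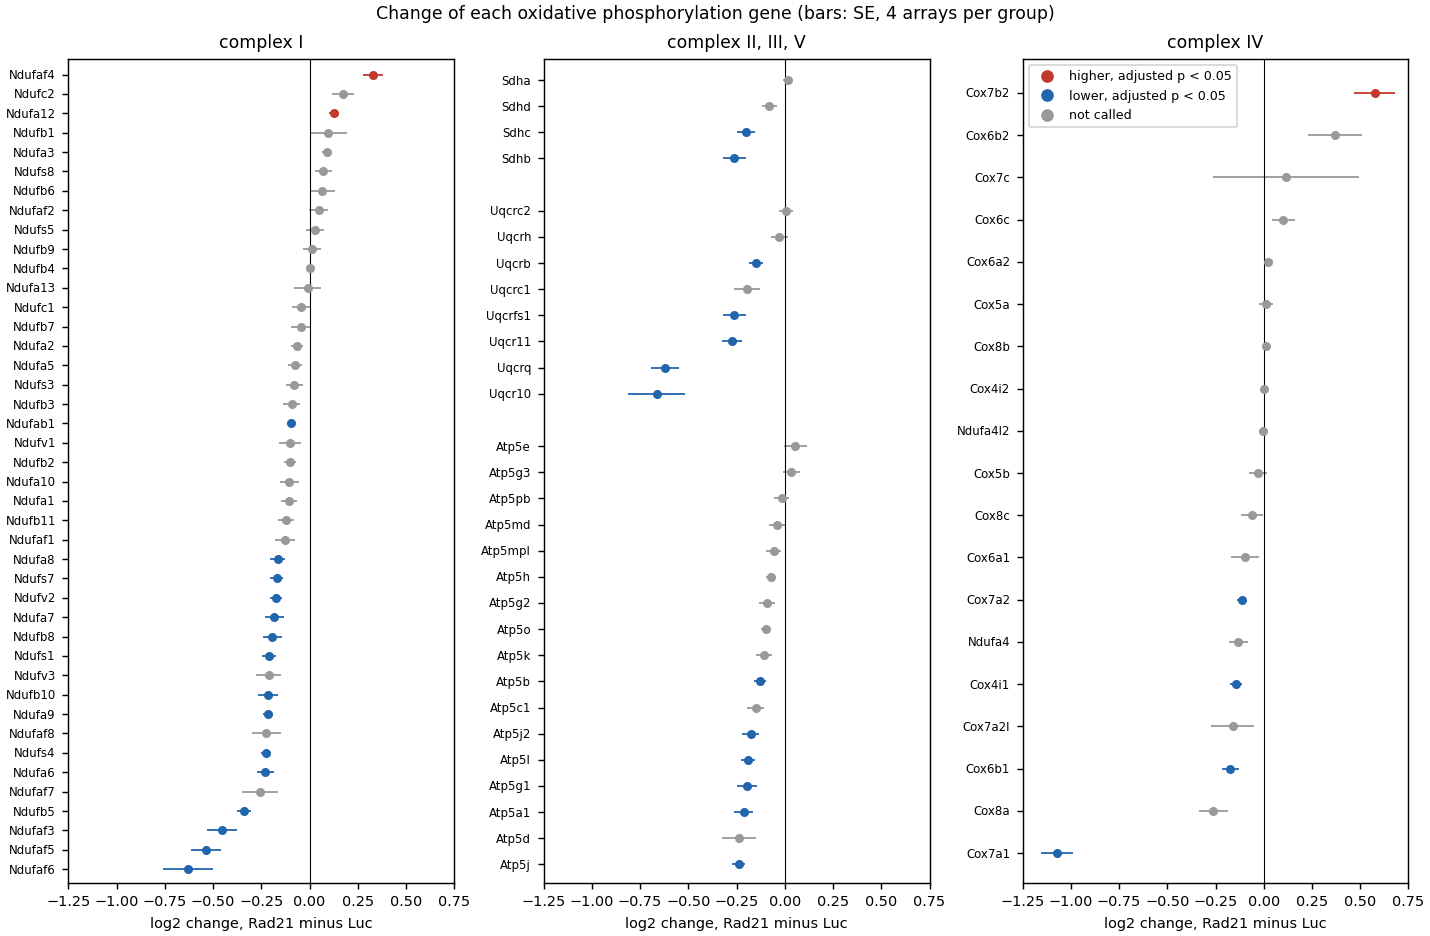
Change on the log2 scale, knock-down minus control (x axis), of each of the 90 genes, in panels by complex; points are limma estimates, bars are standard errors over 4 arrays per group, and colour marks genes called higher, lower or not. Most points lie left of 0, with Cox7a1 (−1.07) farthest to the left and Cox7b2 (0.57) farthest to the right.

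The arrays can also be read one by one. For the 73 widely expressed subunits, which leave out assembly factors and tissue-restricted forms, each array's median distance from the gene's own mean was −0.03, −0.04, −0.05 and −0.10 on the 4 knock-down arrays and 0.04, 0.12, 0.02 and 0.05 on the 4 Luc arrays. The groups did not overlap, but Luc replicate 2 stood highest and Rad21 replicate 4 lowest. Other bright genes were not read this way by array. The median change of all bright genes was −0.05, so the separation is not shown to be particular to these subunits. Among these 73 subunits 28 were lower (38.4%) and only Ndufa12 was higher (1.37%), against 26% lower and 16.5% higher among all bright genes.

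**Figure D2:**
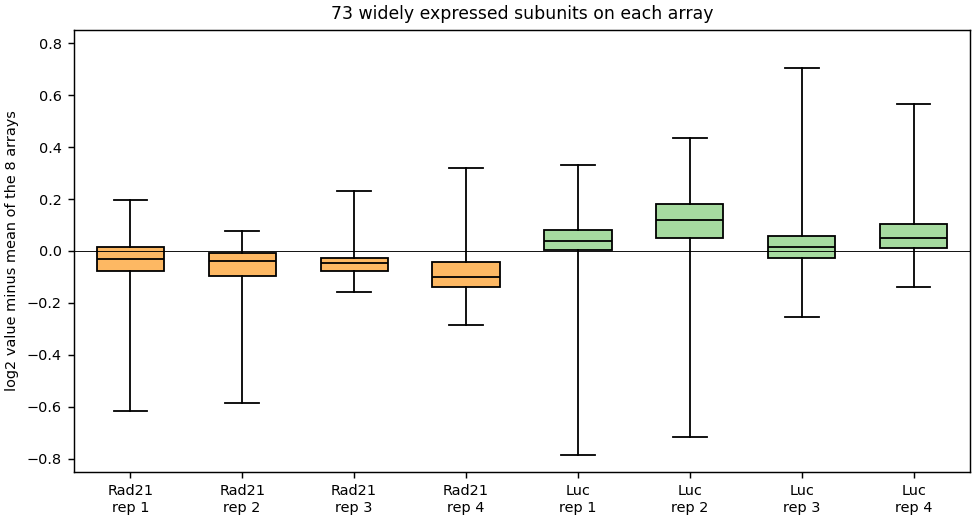
Log2 value minus the gene's mean over the 8 arrays (y axis) for 73 widely expressed subunits on each array; boxes show quartiles and median, whiskers the lowest and highest gene. All 4 Rad21 medians (−0.10 to −0.03) lie below all 4 Luc medians (0.02 to 0.12).

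In both groups, replicates 1 and 2 stood apart from replicates 3 and 4, although the labels name no batch. The median change of the 90 genes was −0.12 within replicates 1 and 2 and −0.10 within replicates 3 and 4. All 32 genes called lower had a negative change within both sets, but they were called on these same arrays. Where the groups do not overlap, a negative change within both sets is given in advance, so this is no separate support. Tested on replicates 1 and 2 alone, 9 of the 32 were called lower, and on replicates 3 and 4 alone also 9, with fewer arrays. Over the 90 genes 62 were lower in both sets, 11 were higher in both and 17 changed sign between them. Rad21 itself changed by −1.80 within replicates 1 and 2 and by −1.36 within replicates 3 and 4.

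Promoters were looked at for letters that transcription factors of respiratory genes are known to bind. RefSeq promoters (GRCm38.p6), from 250 bases before to 50 after the start site, were at hand for 74 of the 90 genes, 79 promoters in all. Searched on both strands were GCGCA, then any base, then GCGC, of the type bound by NRF1, CCGGAAG, of the type bound by ETS factors such as GABP, and AAGATGGCG, of the type bound by YY1. The NRF1-type string stood in 22.8% of the 79 promoters and in 4.6% of all 32851 promoters in the table, the ETS-type string in 24.1% and 8.86%, and the YY1-type string in 8.86% and 1.4%. Among the 21262 promoters of protein-coding genes the shares were 6.38%, 11.6% and 1.83% for the NRF1-type, ETS-type and YY1-type strings. Matches of different strings can share letters, but overlapped in 0 promoters. Among the 27 promoters of genes called lower the shares were 11.1%, 18.5% and 18.5% for the NRF1-type, ETS-type and YY1-type strings, and among the 52 promoters of the other respiratory genes 28.8%, 26.9% and 3.85%. These shares describe letters only, and a match is not a binding site. Promoters are printed below for genes of each complex at which the results turn, in lower case from 250 bases before to 30 after the start site, with matches in capitals.

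In complex I, 15 of 42 genes were lower and 2 were higher, with a median change of −0.10. Of the 6 core subunits measured here, 3 were lower (50%, against 26% of all bright genes). Ndufs1, the large iron-sulfur subunit, averaged 11.91 ± 0.04 in the knock-down and 12.12 ± 0.06 in the control (SD, n = 4 each), a change of −0.21 ± 0.04 (SE, adjusted p = 0.0081). Ndufv2 and Ndufs7, both iron-sulfur proteins, changed by −0.18 and −0.17. Among the 28 accessory subunits, 9 were lower (32.1%) and 1 was higher (3.57%). Among all bright genes 26% were lower and 16.5% higher, and among all genes 12.6% and 10.1%.

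Ndufb5, an accessory subunit of the membrane arm, was the accessory subunit with the most negative change. It was at 13.18, 13.20, 13.28 and 13.14 on the knock-down arrays and at 13.53, 13.59, 13.48 and 13.57 on the Luc arrays, a change of −0.34 ± 0.04 (SE, adjusted p = 9.57e-04). The groups were well apart at this probe set, yet a second Ndufb5 probe set changed by only −0.05 and was not called. Ndufa6, a LYR-motif accessory subunit, averaged 12.38 ± 0.06 in the knock-down and 12.60 ± 0.07 in the control (SD, n = 4 each), a change of −0.23 (adjusted p = 0.0123). Ndufa12, an accessory subunit, moved the other way at 13.65, 13.64, 13.63 and 13.61 against 13.48, 13.48, 13.56 and 13.52 on the Luc arrays, a change of 0.12 (adjusted p = 0.00952). Its 2 called probe sets belong to the _x_at class, whose probes can also bind related transcripts. Ndufb6 was not called, at 14.78 ± 0.09 in the knock-down and 14.72 ± 0.11 in the control (SD, n = 4 each). The single-symbol probe set of Ndufb4 stayed at 2.17 in the knock-down and 2.16 in the control and is uninformative.

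The Ndufaf assembly factors held the widest changes of complex I. Of 8, 3 were lower (37.5%, against 26% of all bright genes), 1 was higher and 4 were not called, with a median of −0.24. Ndufaf6 was at 9.44, 9.31, 9.84 and 9.82 on the knock-down arrays and at 10.15, 10.22, 10.19 and 10.35 on the Luc arrays, which is 64.6% of the control (−0.63 ± 0.13 SE, adjusted p = 0.0147). Ndufaf5, a hydroxylase that modifies the core subunit Ndufs7, was at 8.62, 8.49, 8.84 and 8.79 in the knock-down against 9.19, 9.26, 9.18 and 9.26 in the control. It fell to 69% of the control (−0.54 ± 0.08 SE, adjusted p = 0.00322). Every knock-down array was below every control array for both genes, and replicates 1 and 2 of the knock-down were the lowest.

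Ndufaf3, which acts early in assembly of the arm that carries ubiquinone-reducing subunits, averaged 9.26 ± 0.05 in the knock-down and 9.71 ± 0.16 in the control (SD, n = 4 each), a change of −0.45 (adjusted p = 0.00646). Ndufaf4, known as a partner of Ndufaf3 in the same assembly step, went the other way. It was at 11.91, 11.90, 11.89 and 11.91 on the knock-down arrays and at 11.45, 11.51, 11.68 and 11.66 on the Luc arrays, a change of 0.33 ± 0.05 (SE, adjusted p = 0.00465). A second Ndufaf4 probe set was also higher, by 0.36 (adjusted p = 0.0385). Ndufaf1, Ndufaf2, Ndufaf7 and Ndufaf8 were not called, with changes of −0.13, 0.05, −0.26 and −0.22.

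The promoters of Ndufaf4 and Ndufaf5, whose transcripts changed in opposite directions, are shown because each holds the same NRF1-type string once.
Ndufaf4, chr4:24897833-24898112, plus strand: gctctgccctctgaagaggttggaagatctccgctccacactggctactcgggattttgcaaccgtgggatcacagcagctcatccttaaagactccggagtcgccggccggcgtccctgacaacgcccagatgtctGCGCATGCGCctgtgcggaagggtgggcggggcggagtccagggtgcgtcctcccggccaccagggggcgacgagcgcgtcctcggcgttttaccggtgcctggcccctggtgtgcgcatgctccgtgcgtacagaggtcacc
Ndufaf5, chr2:140170396-140170675, plus strand: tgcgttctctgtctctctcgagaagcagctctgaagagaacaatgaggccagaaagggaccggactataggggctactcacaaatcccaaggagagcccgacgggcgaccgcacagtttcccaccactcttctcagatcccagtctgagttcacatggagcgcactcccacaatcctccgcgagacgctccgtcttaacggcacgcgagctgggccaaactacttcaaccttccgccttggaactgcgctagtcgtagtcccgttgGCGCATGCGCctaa
In capitals is the string GCGCATGCGC, which begins 113 bases before the start site in Ndufaf4 and at base 17 of the transcript in Ndufaf5.

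**Figure D3:**
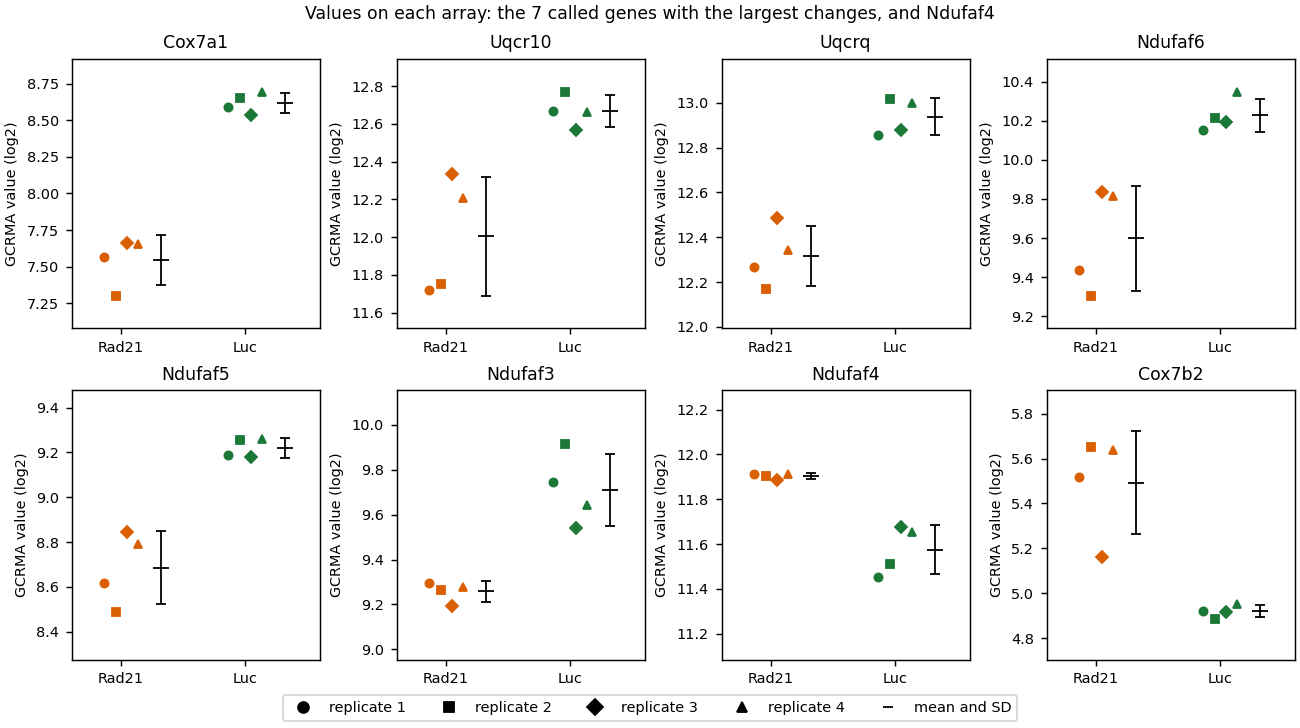
Log2 GCRMA value (y axis) on each array for the 7 called genes with the largest changes and for Ndufaf4, Rad21 knock-down left and Luc control right; symbols mark replicates, black marks are the mean and SD of 4 arrays. In each panel the groups do not overlap, and for Uqcr10 and Ndufaf6 replicates 1 and 2 of the knock-down lie below replicates 3 and 4.

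Other complex I assembly factors, listed by function and not by name, went down in 4 of 10 cases and up in 0. The share lower was 40% in this short list, against 26% of all bright genes. Foxred1 was at 7.55, 7.67, 7.68 and 7.61 in the knock-down and at 8.31, 8.20, 8.59 and 8.41 in the control, a fall to 59.5% (−0.75 ± 0.08 SE, adjusted p = 8.98e-04). Nubpl, which delivers iron-sulfur clusters, changed by −0.43 (adjusted p = 0.00366) and Acad9 by −0.41 (adjusted p = 0.00961).

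In complex II, which is also the succinate dehydrogenase of the citric acid cycle, a catalytic and an anchor subunit were each lower while their partners were not called. Sdhb, the iron-sulfur subunit, was at 12.75, 12.69, 12.65 and 12.53 in the knock-down against 12.91, 13.03, 12.80 and 12.93 in the control (−0.26 ± 0.06 SE, adjusted p = 0.024). Sdhc, a membrane anchor, was at 11.07, 11.14, 11.17 and 11.20 against 11.41, 11.23, 11.40 and 11.35 in the control, a change of −0.20 (adjusted p = 0.0263), and a second Sdhc probe set was also lower. Groups did not overlap for either gene, although the gap for Sdhc was narrow. Sdha, the flavoprotein, was at 12.07, 12.05, 12.06 and 12.10 in the knock-down and at 11.99, 12.06, 12.09 and 12.08 in the control, a change of 0.02 ± 0.03 (SE, adjusted p = 0.836). Sdhd, the other anchor, changed by −0.08 (adjusted p = 0.266), with overlapping groups. The calls for Sdhb and Sdhc were each lost when single arrays were left out, with adjusted p up to 0.0644 without Luc replicate 4 for Sdhb and up to 0.0707 without Luc replicate 3 for Sdhc. Both were also lost in the unmoderated analysis of variance (adjusted p = 0.0556 and 0.0562), and Sdhc was lost with quantile normalization (0.0721) and with centring on bright probe sets (0.0763). Of 4 complex II assembly factors only Sdhaf4 was called, at −0.28 (adjusted p = 0.0019). This is a share of 25% called lower, against 26% of all bright genes.

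The Sdha promoter is shown because it carries 3 NRF1-type strings beside a transcript that was not called.
Sdha, chr13:74350211-74350490, minus strand: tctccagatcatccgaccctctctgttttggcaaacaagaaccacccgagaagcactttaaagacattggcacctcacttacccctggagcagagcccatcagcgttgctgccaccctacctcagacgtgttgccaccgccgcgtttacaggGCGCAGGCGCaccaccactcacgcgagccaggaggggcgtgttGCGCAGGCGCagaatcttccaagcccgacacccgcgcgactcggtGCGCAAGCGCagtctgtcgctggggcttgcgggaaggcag
The matches, in capitals, begin 98, 55 and 10 bases before the start site.

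Complex III had the most negative median of the 5 complexes (−0.23), with 5 of 8 genes lower and 0 higher. Uqcr10, a small accessory subunit, was at 11.72, 11.75, 12.33 and 12.21 on the knock-down arrays and at 12.67, 12.77, 12.57 and 12.66 on the Luc arrays. This is 63.1% of the control (−0.66 ± 0.15 SE, adjusted p = 0.0213), and all 3 of its probe sets were lower, with changes of −0.65 to −0.67. The fall was −0.98 within replicates 1 and 2 and −0.34 within replicates 3 and 4, without a called interaction between set and knock-down (adjusted p = 0.0512). The Uqcr10 call was lost without Rad21 replicate 2 or without Luc replicate 1, 2 or 4, with an adjusted p of 0.0526 to 0.0622.

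Uqcrq, another small accessory subunit of complex III, was at 12.27, 12.17, 12.49 and 12.34 in the knock-down against 12.86, 13.02, 12.88 and 13.00 in the control. It was at 65% of the control (−0.62 ± 0.07 SE, adjusted p = 0.00123) and clear of it on every array. This probe set is of the _s_at class, which can read more than 1 transcript, and the other 3 Uqcrq probe sets were dim in both groups and showed no fall. Uqcr11 and Uqcrfs1, the Rieske iron-sulfur protein, changed by −0.27 (adjusted p = 0.0121) and −0.26 (adjusted p = 0.0257). Uqcrb averaged 15.39 ± 0.03 in the knock-down and 15.54 ± 0.06 in the control (SD, n = 4 each), a change of −0.15 (adjusted p = 0.0274). Cytochrome c1 (Cyc1), the catalytic subunit that the name rule leaves out, was not called (−0.07). Of 6 complex III assembly factors, Uqcc1 (−0.42) and Bcs1l (−0.35) were lower and 0 were higher. The share lower was 33.3%, against 26% of all bright genes.

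The Uqcr10 promoter is shown as that of the complex III gene with the most negative change, and it held 0 matches to the strings searched.
Uqcr10, chr11:4704315-4704594, minus strand: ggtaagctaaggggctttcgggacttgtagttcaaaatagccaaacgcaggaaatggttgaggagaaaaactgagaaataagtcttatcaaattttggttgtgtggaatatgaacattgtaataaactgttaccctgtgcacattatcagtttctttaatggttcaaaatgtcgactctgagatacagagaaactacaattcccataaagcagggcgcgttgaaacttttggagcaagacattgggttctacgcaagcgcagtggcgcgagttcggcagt

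In complex IV, cytochrome c oxidase, 4 of 19 genes were lower (21.1%, against 12.6% of all genes) and 1 was higher, with a median of −0.03. This share and this median include 5 genes under 4 in both groups. The 10 widely expressed subunits had a median of −0.11, with 3 lower (30%, against 26% of all bright genes). Its tissue forms, paralogs that replace a common subunit in certain organs, gave both the largest fall and the largest rise of the 90 genes. Cox7a1, the heart and skeletal muscle form of subunit 7a, was at 7.57, 7.30, 7.66 and 7.65 on the knock-down arrays and at 8.59, 8.65, 8.54 and 8.69 on the Luc arrays. It fell to 47.6% of the control (−1.07 ± 0.08 SE, adjusted p = 2.08e-04), and its single probe set changed by −1.19 within replicates 1 and 2 and by −0.96 within replicates 3 and 4. Of 8 muscle markers, 6 were under 4 in both groups and could not show a fall, and 1, Myh7, was called higher at a low signal (3.95 in the knock-down and 2.30 in the control). Their summed signal was 9.59 to 9.93 on knock-down arrays and 8.97 to 9.64 on Luc arrays, and their part in the Cox7a1 result was not tested. Cox7a2, the form of most tissues, averaged 14.69 ± 0.02 in the knock-down and 14.80 ± 0.04 in the control (SD, n = 4 each), a change of −0.12 (adjusted p = 0.0188). Cox7a2l, which takes part in supercomplex assembly, changed by −0.16 and was not called.

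Cox7b2, a form of subunit 7b known from testis, was at 5.52, 5.65, 5.16 and 5.64 in the knock-down and at 4.92, 4.89, 4.92 and 4.95 in the control, a change of 0.57 ± 0.11 (SE, adjusted p = 0.00943). The signal was low but above the Luc range on all 4 knock-down arrays. Cox6b2, another testis form, was not called at 10.07 ± 0.24 in the knock-down and 9.71 ± 0.19 in the control (SD, n = 4 each, adjusted p = 0.151). Its widely expressed partner Cox6b1 was lower (−0.17, adjusted p = 0.0427). Cox4i1, the common form of subunit 4, was lower (−0.14, adjusted p = 0.0165). The tissue forms Cox4i2, Cox6a2, Cox8b and Cox8c, and Ndufa4l2, were under 4 in both groups. Cox5a, Cox6a1, Cox8a and Ndufa4 were not called at their brightest probe sets, with changes of 0.01, −0.10, −0.26 and −0.13. Other bright probe sets were called lower for Cox5a (−0.20, adjusted p = 0.0083) and Cox8a (−0.29, adjusted p = 0.049), while the remaining Cox5a probe set was at 0.05, so the probe sets of Cox5a disagreed.

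The Cox7a1 promoter is shown for the largest change of all, and it held 0 matches.
Cox7a1, chr7:30183921-30184200, plus strand: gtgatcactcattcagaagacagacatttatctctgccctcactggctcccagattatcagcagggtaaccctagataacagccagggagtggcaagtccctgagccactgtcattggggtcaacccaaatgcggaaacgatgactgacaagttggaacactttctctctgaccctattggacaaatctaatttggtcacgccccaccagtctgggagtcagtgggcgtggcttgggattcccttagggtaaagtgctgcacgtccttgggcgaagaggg

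Of 19 complex IV assembly factors measured, 2 were higher (10.5%) and 5 lower (26.3%). Among all bright genes 16.5% were higher and 26% lower, so the share lower was near that of bright genes. Sco2, a copper chaperone, averaged 8.65 ± 0.17 in the knock-down and 8.05 ± 0.12 in the control (SD, n = 4 each), a change of 0.60 (adjusted p = 0.00503). Cox20 was at 11.13, 11.06, 10.90 and 10.93 in the knock-down against 10.48, 10.44, 10.54 and 10.34 in the control, a change of 0.56 (adjusted p = 0.0011). Both stood above the Luc range on every knock-down array. In the other direction were Cox18 (−0.31), Cox17 (−0.28), which carries copper to Sco proteins, and Coa7 (−0.24).

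Cox7c, a small subunit of complex IV, differed between replicate sets and was singled out after its values had been seen. It was at 8.10, 8.03, 8.46 and 8.54 on the knock-down arrays and at 7.44, 7.51, 8.93 and 8.79 on the Luc arrays. The change was 0.59 within replicates 1 and 2 and −0.36 within replicates 3 and 4 (interaction adjusted p = 0.0295), so the pooled value of 0.11 is an average of opposite signs. Of the 90 genes, Cox7c was the 1 with a called interaction. ND5, the only mitochondrially encoded subunit with a symbol of its own in the annotation, was at 13.62, 13.55, 13.59 and 13.63 on the knock-down arrays and at 12.69, 12.53, 13.65 and 13.56 on the Luc arrays. The Luc arrays were thus split between the same replicates as for Cox7c. Its change was 0.98 within replicates 1 and 2 and 0.01 within replicates 3 and 4 (interaction adjusted p = 0.0298), and the pooled change of 0.49 was not called (adjusted p = 0.347).

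**Figure D4:**
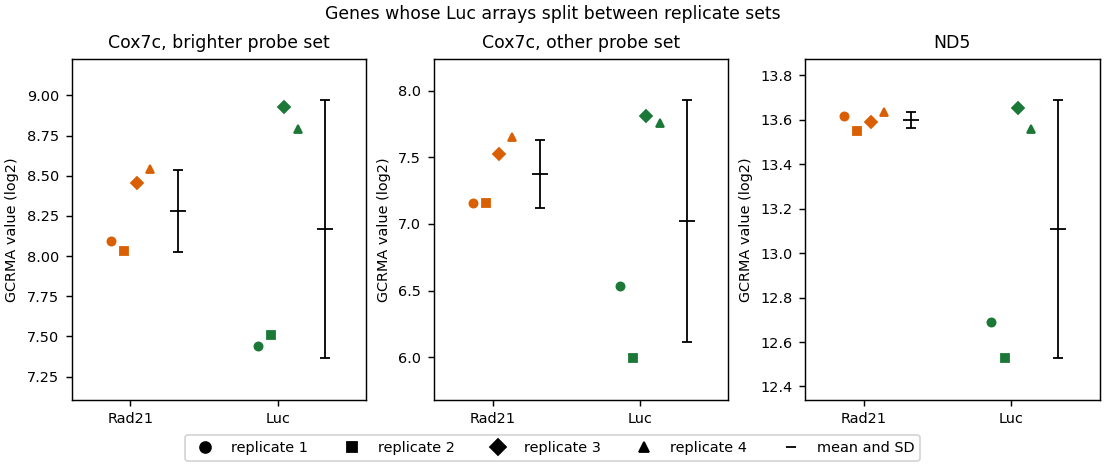
Log2 GCRMA value (y axis) on each array for both Cox7c probe sets and for ND5, Rad21 knock-down left and Luc control right; symbols mark replicates, black marks are the mean and SD of 4 arrays. In each panel Luc replicates 1 and 2 lie below Luc replicates 3 and 4, for ND5 at 12.69 and 12.53 against 13.65 and 13.56.

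Complex V had 6 of 17 genes lower and 0 higher, with a median change of −0.11 and none more negative than −0.24. Atp5j, coupling factor 6 of the peripheral stalk, was at 13.37, 13.35, 13.39 and 13.34 on the knock-down arrays and at 13.56, 13.67, 13.55 and 13.63 on the Luc arrays (−0.24 ± 0.03 SE, adjusted p = 0.00221). Every knock-down array lay below every control array. Of the catalytic F1 head, the alpha subunit Atp5a1 changed by −0.21 (adjusted p = 0.025) and the beta subunit Atp5b by −0.13 (adjusted p = 0.0221). The other 2 Atp5a1 probe sets were not called, at 0.04 and 0.13, so the direction for Atp5a1 rests on 1 probe set. Leaving out single arrays also took these calls past the threshold, with an adjusted p of up to 0.0642 for Atp5a1 (without Rad21 replicate 1) and up to 0.0648 for Atp5b (without Rad21 replicate 1).

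Atp5l and Atp5j2, membrane subunits of the Fo part, changed by −0.19 (adjusted p = 0.0135) and −0.18 (adjusted p = 0.0348). The 3 genes of the c-ring protein, which differ in their import sequences and give the same mature protein, were not alike in their calls. Atp5g1 averaged 13.47 ± 0.06 in the knock-down and 13.67 ± 0.09 in the control (SD, n = 4 each), a change of −0.20 (adjusted p = 0.0415) with overlapping groups, whereas Atp5g2 (−0.09) and Atp5g3 (0.03) were not called. The differences between these genes were not tested. Atp5h and Atp5mpl were not called at their brightest probe sets, at −0.07 and −0.06, but a second Atp5h probe set was lower (−0.19, adjusted p = 0.0217), as was the mean of its probe sets (−0.13, adjusted p = 0.00854). Of 4 assembly factors of complex V, Tmem70 was higher (0.31, adjusted p = 0.0468) and Atpaf2 lower (−0.15, adjusted p = 0.0334). Each is a share of 25%, against 16.5% higher and 26% lower among all bright genes.

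Atp5j has a pair of promoters in the table, one without a match, and the other is shown because it combines an ETS-type and a YY1-type string with a called fall.
Atp5j, chr16:84834947-84835226, minus strand: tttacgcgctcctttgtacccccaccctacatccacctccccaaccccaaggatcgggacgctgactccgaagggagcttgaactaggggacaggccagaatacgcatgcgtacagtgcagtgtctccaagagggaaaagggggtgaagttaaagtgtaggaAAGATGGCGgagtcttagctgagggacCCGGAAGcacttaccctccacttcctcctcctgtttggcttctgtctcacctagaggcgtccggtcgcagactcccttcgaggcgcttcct
The YY1-type string begins 88 and the ETS-type string 61 bases before the start site.

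Among 20 regulators of respiratory genes and of mitochondrial transcription, 6 were lower (30%) and 1 was higher (5%). Among all bright genes 26% were lower and 16.5% higher, so the share lower was near that of bright genes. Mterf1a, a mitochondrial transcription termination factor, was at 8.19, 7.93, 8.61 and 8.75 in the knock-down and at 9.12, 9.09, 9.15 and 9.05 in the control (−0.73 ± 0.17 SE, adjusted p = 0.0265). Tefm, the mitochondrial elongation factor, and Ppargc1b, a coactivator, each changed by −0.45 (adjusted p = 0.00404 and 0.0338). Of the factors whose strings were searched, Gabpa was lower (−0.29, adjusted p = 0.00189), Yy1 was higher (0.10, adjusted p = 0.0485) and Nrf1 was not called (0.04, adjusted p = 0.922). Cytochrome c, the carrier between complexes III and IV, was not called for Cycs (0.22) or the testis form Cyct (0.33).

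Precision is limited by the number of arrays and by how GCRMA treats signals. GCRMA scales the arrays to each other, so that a shift of all transcripts together would not be measured, although the deposited distributions were not identical (array medians 3.08 to 3.16). It pulls dim probe sets to a low plateau. Of the 41 genes with at least 2 probe sets of mean 8 or more, all such probe sets had 1 sign in 29, and all were called in 5. Of the genes not called, 6 had another probe set called lower and 0 had one called higher.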

How the data were processed

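Total RNA of R1/E cells was measured on 8 Affymetrix mouse arrays, 4 per group. The authors deposited log2 values made with GCRMA in Partek Genomics Suite 6.4, and scanner files were not used here. The labels give 250 ng of RNA for labelling, while the study's methods give micrograms. Of 45101 probe sets 64 controls were left out and 45037 tested; 34945 had a single symbol, 932 several and 9160 none in the platform annotation, and 10 probe sets of respiratory names carried several symbols and were left out. All 90 genes were matched to RefSeq by Entrez ID.

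Groups and replicate numbers came from the labels, which call the samples biological replicates without saying how cultures were kept apart, so p-values measure the spread between these samples. Groups were compared by limma 3.58.1 (lmFit, eBayes; R 4.3.3, statmod 1.5.0), two-sided, with Benjamini-Hochberg adjustment over all 45037 probe sets and calls at an adjusted p under 0.05. Over 5 simulated runs on 45037 probe sets, 46.8%, 65.2%, 88.8% and 98% of changes of 0.25, 0.5, 1 and 2 were recovered and 5.8% of calls were false. The runs together planted 250 changes of each size, on probe sets drawn at random, dim ones included. Far fewer probe sets changed there than were called in the data, so these shares do not give the recovery for respiratory genes. Control probe sets were compared by exact permutation. Plots were drawn with matplotlib 3.10.9.

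Genes and lists were chosen with earlier results of these data known. Named were, per complex, up to 5 called genes in each direction whose groups did not overlap, the brightest and dimmest gene, all of complex II, the paralog families, and in other lists up to 3 called genes per direction. Ndufs1, Ndufv2, Ndufs7, Cox7c, ND5, Gabpa, Nrf1, Cyc1, Cycs and Cyct and the markers named were chosen after their values were seen. Alternatives were an unmoderated analysis of variance per probe set, as in the study, limma with a trended and robust prior, the replicate number or the replicate set as a block, each replicate set alone, quantile normalization, centring on probe sets with a mean of at least 8, only probe sets averaging at least 4, array weights, other choices of probe set, a threshold of 0.01 and leaving out each array.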

Additional observations from a re-analysis of the deposited data

Results flagged for a closer look

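Within groups of 4 arrays, 98 groups of values from the 49 named genes were searched for an array far from the rest, and 3 were found, where chance gives about 1 in 20. For Sdhd, Rad21 replicate 4 was at 12.1703, below the other knock-down arrays, with a gap of 0.83 of the group's range. For Ndufb6, Luc replicate 2 was at 14.5531, below the other Luc arrays, with a gap of 0.886 of the range. For Cox4i2, which was dim in both groups, Luc replicate 2 was at 2.35376, below the other Luc arrays, with a gap of 0.87 of the range. None of these genes was called.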

How the results depend on the processing

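The median change of the 90 genes stayed negative under every alternative that can alter it, at −0.07 with centring on bright probe sets and −0.08 with quantile normalization. The unmoderated analysis of variance, the trended and robust prior, the blocks and the threshold of 0.01 leave it at −0.10 by construction. The count of genes lower, 32, was 19 with the unmoderated analysis of variance, 10 at a threshold of 0.01, 11 within replicates 1 and 2 and 10 within replicates 3 and 4, the last 2 with fewer arrays. Leaving out single arrays gave 17 to 30 genes lower, and the count moved most without Rad21 replicate 2 (17), Luc replicate 4 (17) and Rad21 replicate 4 (20). With quantile normalization 26 were lower and 5 higher, with centring on bright probe sets 24 lower and 4 higher, and with the replicate sets as a block 37 lower and 5 higher, against 3 higher in the main comparison. Lower calls made up 91.4% of calls, against 85.7% with centring, 83.9% with quantile normalization, 76.9% at the threshold of 0.01 and 73.3% within replicates 1 and 2.

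With the replicate number as a block (replicate block), 18 genes were lower, of which 17 were among the 32, and 2 were higher. The numbers do not pair the samples by the data: deviations of same-numbered arrays correlated at 0.02, 0.13, 0.07 and 0.13, and Rad21 replicate 1 correlated best with Luc replicate 2 (0.14).

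Without _x_at and _s_at probe sets, Ndufa12 changed by −0.0374 and Uqcrq by 0.00617, both on dim probe sets. Such probe sets represented 19 of the 90 genes. Of 25 named calls, those of Cox7a1, Ndufaf4 and Ndufaf5 held under all alternatives. The unmoderated analysis of variance ended 9 named calls (Atp5a1, Atp5g1, Atp5j2, Cox6b1, Sdhb, Sdhc, Uqcr10, Uqcrb, Uqcrfs1), quantile normalization 3 (Sdhc, Uqcrb, Uqcrfs1) and centring 5 (Atp5b, Atp5g1, Cox6b1, Sdhc, Uqcrb). Leaving out 1 array ended the calls of Atp5a1, Atp5b, Atp5g1, Atp5j2, Cox4i1, Cox6b1, Cox7a2, Sdhb, Sdhc, Uqcr10, Uqcrb and Uqcrfs1 in at least 1 case, with adjusted p of 0.0514 to 0.111. Complex IV had 3 genes higher and 2 lower within replicates 1 and 2. Complexes II and V had 0 called genes within either replicate set alone. The 6 genes under 4 in both groups lie on the low plateau, where a change could not be read. The cause of these changes was not tested.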
